A study of Oryctolagus cuniculus with 39 samples.

Results

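The 8 genes described here encode enzymes that turn arachidonic acid and related fatty acids into eicosanoids, namely ALOX15, ALOX5, ALOX12, PTGS1, PTGS2, PTGES and LTA4H, together with ALOX5AP, the membrane partner of ALOX5. They were listed by symbol and chosen by the FPKM of ALOX15 across ages in the stroma of rabbit brown fat, where it comes to almost 0, and all 8 were found among the 20589 genes of the stromal table and, by gene identifier, among the 20183 genes of the whole-tissue table. New Zealand White rabbits were sampled at day 1 and at 3, 6 and 12 weeks of age by bulk RNA-seq. The groups were whole interscapular brown adipose tissue (total iBAT), the stromal vascular fraction of that depot (iBAT SVF, the cells left when fat cells are removed) and the stromal vascular fraction of the subscapular depot (sBAT SVF). Each of the 12 groups held 3 libraries, 36 in all. No treatment or genotype is labelled, and the labels do not say that the libraries of a group came from separate animals, so the p-values measure the spread between these libraries, which may in part be technical.

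Lipoxygenases insert oxygen into polyunsaturated fatty acids, and 15-lipoxygenase was first purified from rabbit reticulocytes, the immature red cells in which it attacks the membranes of mitochondria that are being cleared. Its mRNA is made in erythroid precursors and is kept silent until late maturation. The 5-lipoxygenase pathway, with ALOX5, ALOX5AP and LTA4H, makes leukotriene B4 in myeloid cells, ALOX12 is the platelet-type 12-lipoxygenase, and the cyclooxygenases PTGS1 and PTGS2 make prostaglandin H2, which PTGES converts to prostaglandin E2.

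Expression was deposited as FPKM, fragments scaled to transcript length and library size, so that levels can be compared between genes within a table. The whole-tissue table and the stromal table were normalized separately, so a level in whole tissue cannot be set against one in the stroma. Tests were made with limma on log2(FPKM + 1), with a variance trend, and a gene was called at an adjusted p (Benjamini-Hochberg over all 12853 genes tested in total iBAT or 13274 in the SVF) under 0.05. Fold changes on this scale are understated for low genes. In the 3 sBAT SVF libraries of 3 weeks, ADORA1 and LOC100009266 together held 63.9% to 80.4% of all FPKM. They held 26.2% to 37.3% in the sBAT SVF libraries of day 1, against which every sBAT SVF age is compared, 20.3% in replicate 3 of iBAT SVF at 3 weeks, 19.2% in replicate 2 of sBAT SVF at 6 weeks and under 10% in all other libraries. In the 3 week sBAT SVF libraries the median gene tested stood at -0.88 (log2 fold change) against day 1. Many values that rest on these libraries are also given after median ratio scaling, which sets the median library ratio to the same value in every library and moved that median to -0.05. In the other age comparisons the median gene stood between -0.15 and 0.41 as deposited.

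ALOX15, the gene that chose the set, was among the more abundant of the 8 mRNAs at birth and close to 0 from 6 weeks on. In total iBAT its FPKM was 96.05, 24.81 and 75.94 in the 3 libraries of day 1, 32.40, 32.93 and 39.67 at 3 weeks, 0.77, 0.16 and 0.02 at 6 weeks, and 0.35, 0.07 and 0 at 12 weeks. Every library of 6 and 12 weeks lay below every library of day 1 and of 3 weeks, whereas the day 1 and 3 week ranges overlapped. The means were 65.6 ± 36.7 (SD, n = 3) at day 1, 35.0 ± 4.05 at 3 weeks, 0.317 ± 0.399 at 6 weeks and 0.14 ± 0.185 at 12 weeks. On the log2 scale ALOX15 fell by 5.50 (SE 0.40, adjusted p = 1.25e-06) at 6 weeks and by 5.68 (SE 0.40, adjusted p = 9.24e-07) at 12 weeks, both against day 1. At 3 weeks the difference was -0.69 (SE 0.40, adjusted p = 0.183). Without replicate 2 of day 1, the lowest library of that age, it was -1.27 with an adjusted p of 0.00334.

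The stromal levels of ALOX15 by age chose the set, so they are a description with no test. In iBAT SVF the ALOX15 FPKM was 351.02, 23.93 and 261.48 at day 1, 36.86, 17.94 and 33.02 at 3 weeks, 0.52, 0.16 and 0.18 at 6 weeks, and 0.30, 0.08 and 0.09 at 12 weeks. The sBAT SVF libraries held 422.14, 101.72 and 249.08 at day 1, 9.62, 16.52 and 4.72 at 3 weeks, 0.11, 0 and 0.14 at 6 weeks, and 0.26, 0.20 and 0 at 12 weeks. Day 1 and 3 weeks overlapped in iBAT SVF through replicate 2 of day 1, and all other steps down to 6 weeks separated the groups in both depots. From high to low, the stromal group means were 258 in sBAT SVF and 212 in iBAT SVF at day 1, 29.3 in iBAT SVF and 10.3 in sBAT SVF at 3 weeks, and 0.287 or less in the 4 groups of 6 and 12 weeks, whose ranges overlapped one another except that iBAT SVF lay above sBAT SVF at 6 weeks. In bulk libraries, fewer cells of a type and less RNA per cell cannot be told apart.

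**Figure D1:**
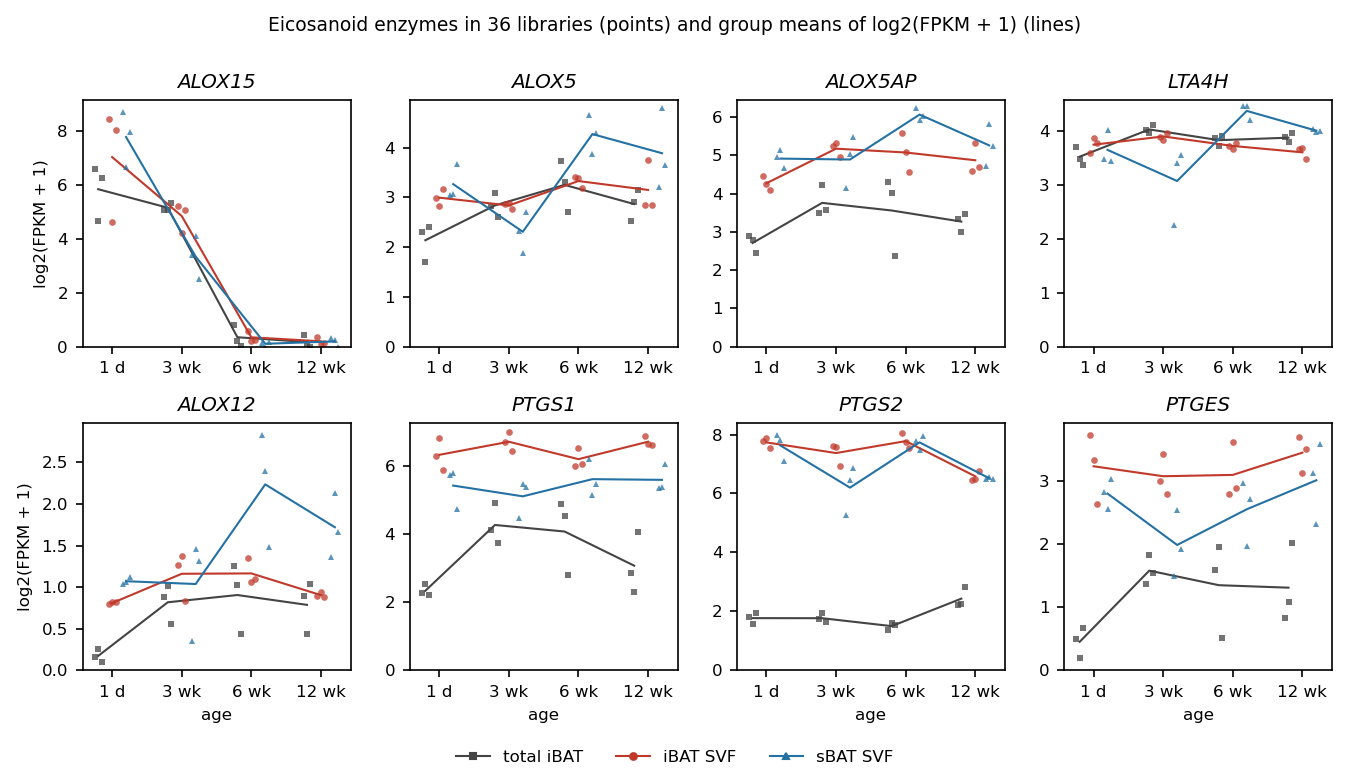
Expression of the 8 genes as log2(FPKM + 1) (vertical axis) against age (horizontal axis) in total iBAT (squares), iBAT SVF (circles) and sBAT SVF (triangles). Points are single libraries and lines join the group means. ALOX15 drops to near 0 at 6 and 12 weeks in all 3 tissues, and none of the other 7 genes does.

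Side by side, again as a description, the ALOX15 ranges of the 2 depots overlapped at day 1 and at 12 weeks. At 3 and 6 weeks all 3 iBAT SVF libraries lay above all 3 sBAT SVF libraries. The 3 week difference of 1.51 on the log2 scale was 0.33 after median ratio scaling.

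Erythroid genes were set beside ALOX15, since 15-lipoxygenase is a reticulocyte enzyme. Of a list of 55 erythroid genes (globins, haem synthesis and iron, red cell membrane, regulators and red cell enzymes), 47 were in each table. The filter passed 34 of them in total iBAT and 38 in the SVF, and the counts below are over those. HBB2, an adult beta-type globin, stood for the mature red cell and ALAS2, the erythroid enzyme that starts haem synthesis, for haemoglobin production. HEMGN, a nuclear regulator of erythroid differentiation, EPB42, a membrane skeleton protein, and CA1, a red cell carbonic anhydrase, are also described. Globin genes have near-identical copies, so the assignment of fragments among them is uncertain.

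From day 1 to 6 weeks most of the erythroid genes called were lower, as ALOX15 was. In sBAT SVF at 6 weeks, 23 of 38 erythroid genes were called, 22 of them lower and 1 higher, where 35.8% of all genes tested were called (8.29% lower). HBB2 in that tissue stood at 44400, 15724 and 19769 FPKM at day 1 and at 418, 759 and 367 at 6 weeks. In iBAT SVF it went from 19632, 2835 and 23871 at day 1 to 141, 309 and 70.7 at 6 weeks, when 22 of 38 erythroid genes were called lower and 1 higher, where 15.4% of all genes were called. In total iBAT, 26 of 34 erythroid genes were called at 6 weeks, 19 lower and 7 higher, where 50.7% of all genes tested were called (15.6% lower).

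At 12 weeks HBB2, ALAS2 and CA1 in sBAT SVF overlapped their day 1 ranges again and ALOX15 did not. HBB2 in sBAT SVF read 41919, 43481 and 33229 FPKM at 12 weeks, within the range of day 1. ALAS2 in the same 3 libraries read 776, 689 and 415, against 506, 204 and 321 at day 1 and 7.52, 9.40 and 5.61 at 6 weeks. CA1 read 65.47, 65.33 and 60.04 at 12 weeks, inside its day 1 range of 38.6 to 97.1, and 0.44, 1.72 and 0.49 at 6 weeks. ALOX15 in these 12 week libraries was between 0 and 0.26. Neither HBB2 (adjusted p = 0.394), nor ALAS2 (adjusted p = 0.265), nor CA1 (adjusted p = 0.987) differed between 12 weeks and day 1 in sBAT SVF beyond the spread of the libraries.

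In the interscapular stroma these genes were also higher at 12 weeks than at 6 weeks. HBB2 in iBAT SVF read 5226, 6507 and 7087 FPKM at 12 weeks, ALAS2 read 74.2, 92.6 and 79.4, and CA1 read 6.13, 7.78 and 8.01. For HBB2 and ALAS2 all 3 libraries lay inside the wide day 1 range and above every library of 6 weeks. HEMGN came back to 1.52, 1.56 and 1.18, below its lowest day 1 library at 2.37, from 0 to 0.06 at 6 weeks. In this comparison, which helped to choose the set and is given as a description, 21 of 38 erythroid genes were past the threshold (17 lower, 4 higher), where 37.3% of all genes were (22.8% lower, 14.5% higher). From day 1 to 12 weeks the lower means included TSPO2 (21.4 to 1.93), NFE2 (20.9 to 2.06) and EPB42 (11.1 to 0.85), each without overlap. The 4 higher were KLF1 (1.71 to 5.62), GYPC (35.2 to 59.2), UROD (12.6 to 21.0) and FTH1 (1199 to 1903).

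Erythroid genes did not all return to the same extent. In sBAT SVF at 12 weeks, 13 of 38 were called against day 1, 8 higher and 5 lower, where 44.1% of all genes were called (38.3% higher, 5.86% lower), and median ratio scaling left 1 higher and 11 lower (29.8% of all genes called, 15.0% lower). TRIM58, a ubiquitin ligase of late erythroid maturation, read 56.1, 76.0 and 42.6 FPKM at 12 weeks and 32.4, 15.7 and 23.7 at day 1, higher by 1.27 (SE 0.49, adjusted p = 0.0423). AQP1, a water channel also made by endothelium, rose from a mean of 175 FPKM to 453 (adjusted p = 0.0176) and EPB41, a membrane skeleton protein with wide expression, rose by 1.02 (adjusted p = 0.0305). After median ratio scaling these 3 rises were not called. Lower genes were SLC2A1, a glucose transporter, at -1.51 (adjusted p = 0.000402), and HEMGN at -1.29 (adjusted p = 0.0497), both also lower after median ratio scaling. HEMGN at 12 weeks read 10.2, 8.61 and 5.54 FPKM against 37.1, 11.2 and 21.0 at day 1. ALOX15 stood at 0.26 FPKM or less in these libraries, in which HEMGN was at 5.54 or more.

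KLF1, an erythroid transcription factor, was among the higher genes. In sBAT SVF it read 0.23, 2.44 and 3.69 FPKM at day 1 and 6.01, 9.09 and 5.48 at 12 weeks, higher by 1.51 (adjusted p = 0.0106), a difference not called after median ratio scaling (adjusted p = 0.116). In iBAT SVF it was at 6.69 to 7.04 at 6 weeks, when HBB2 was lowest.

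**Figure D2:**
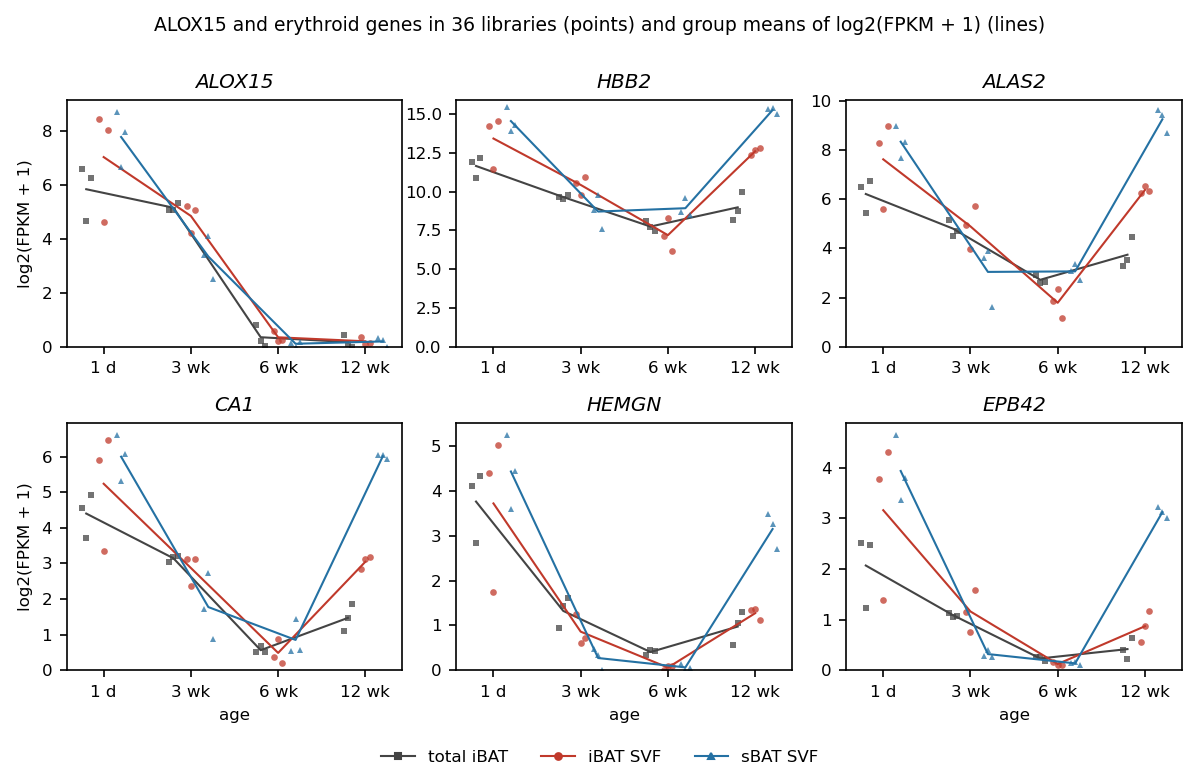
ALOX15 and 5 erythroid genes as log2(FPKM + 1) (vertical axis) against age (horizontal axis) in total iBAT (squares), iBAT SVF (circles) and sBAT SVF (triangles), with single libraries as points and group means as lines. All 6 genes are far lower at 6 weeks than at day 1, after which HBB2, ALAS2 and CA1 rise in both stromal fractions, most in sBAT SVF, while ALOX15 stays between 0 and 0.30 FPKM there.

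The ratio of ALOX15 to an erythroid mRNA within a library puts this in a form that a scaling of the whole library does not change. Per FPKM of ALAS2, ALOX15 stood at 112%, 50.3% and 52.7% in the day 1 libraries of iBAT SVF and at 83.4%, 49.8% and 77.6% in those of sBAT SVF. At 3 weeks, when both genes were lower, the ratio was 63.7% to 122% in iBAT SVF and 86.6% to 225% in sBAT SVF, overlapping or above the day 1 ratios. At 6 weeks it was 3.88% to 19.8% in iBAT SVF and 0% to 2.50% in sBAT SVF. At 12 weeks it was 0.0864% to 0.405% in iBAT SVF and 0% to 0.0335% in sBAT SVF. From 6 to 12 weeks ALAS2 rose in both fractions, while ALOX15 was at 0.52 FPKM or less. Against HBB2 the median ratio was 1.10% at day 1 and 0.0013% at 12 weeks in iBAT SVF, and 0.951% and 0.0005% in sBAT SVF.

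Total iBAT gave the same order. The choice of the set rested on stromal values, but whole tissue includes the stroma of the same depot. Total iBAT is therefore not separate support for the stromal fall. ALOX15 was at 109%, 59.4% and 72.3% of ALAS2 at day 1 and at 92.6%, 150% and 157% at 3 weeks. By 6 weeks it had come to 11.8%, 3.14% and 0.381%, and the 12 week libraries held 4.07%, 0.672% and 0%. Those 12 week ratios all lay below the day 1 ratios. Expressed as log2(ALOX15 + 1) minus log2(erythroid gene + 1), the change from day 1 to 12 weeks was -3.21 for ALAS2, -3.01 for HBB2, -2.88 for HEMGN and -2.74 for CA1. Each of these 4 comparisons gave p = 0.1 in a two-sided exact permutation test (adjusted p = 0.1), which is the smallest value that 3 libraries against 3 allow. Because 1 is added to each FPKM, a scaling of the library can change this measure. It also moves little with ALOX15 under 1 FPKM. Erythroid genes themselves were lower at 12 weeks in total iBAT, where 24 of 34 were called, 18 lower and 6 higher (47.0% of all genes called, 15.7% lower). CA1 fell by 2.93 (adjusted p = 6.54e-06). Of the listed genes that fell, CA2 (by 2.86, adjusted p = 2.6e-07) and the transferrin receptor TFRC (by 2.81, adjusted p = 6.75e-07) are also made outside red cells, as are the genes that rose, among them DMTN, GYPC and the ferritin chain FTH1.

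**Figure D3:**
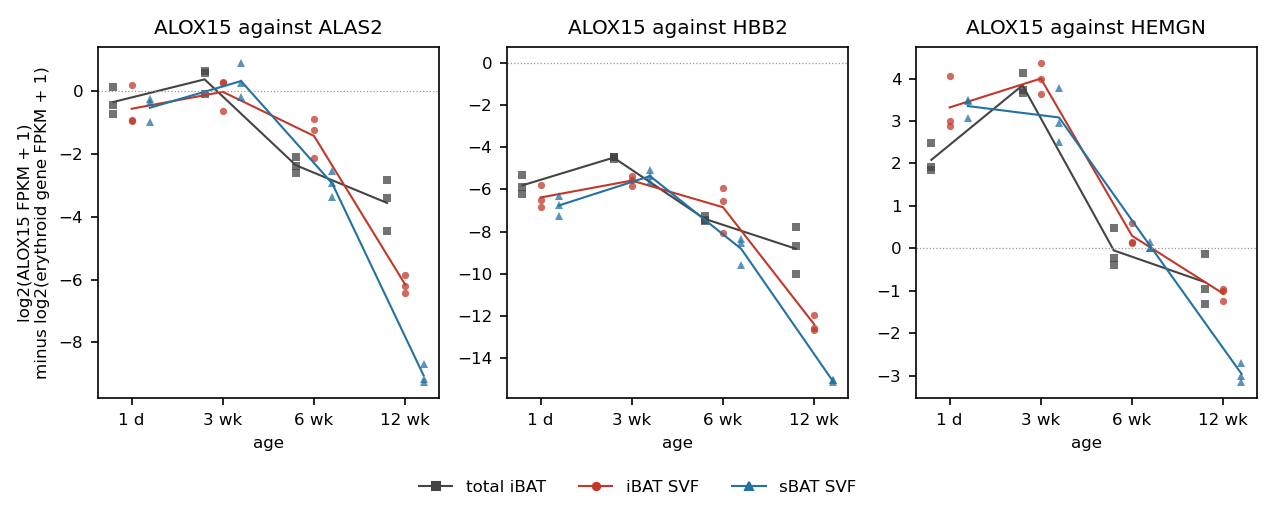
ALOX15 relative to ALAS2, HBB2 and HEMGN within each library, as log2(ALOX15 FPKM + 1) minus log2(erythroid gene FPKM + 1) (vertical axis), against age (horizontal axis). Points are the 3 libraries of each group and lines join their means. The difference is level or higher at 3 weeks than at day 1 against ALAS2 and HBB2 and falls afterwards, to a mean of -9.05 against ALAS2 and -15.1 against HBB2 in sBAT SVF at 12 weeks.

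The 3 iBAT SVF libraries of day 1 differed 14.7-fold in ALOX15 between highest and lowest, and the erythroid genes differed with it. Replicate 2 of iBAT SVF at day 1, with 23.93 FPKM of ALOX15, was also the lowest of its group in HBB2 (2835), ALAS2 (47.6), CA1 (9.12), HEMGN (2.37) and EPB42 (1.63). When the group mean was subtracted in the 24 SVF libraries, the 10 genes with a symbol whose deviations were most like those of ALOX15 (Pearson's r of log2(FPKM + 1)) were HEMGN (0.91), SLC25A39 (0.91), CA1 (0.89), EPB42 (0.88), YPEL4 (0.88), TRIM58 (0.88), NFE2 (0.88), KEL (0.86), ALAS2 (0.85) and MARCHF2 (0.85). Of these, HEMGN, CA1, EPB42, TRIM58, NFE2, KEL and ALAS2 are on the erythroid list. These points share their library, so anything that scales all red cell mRNAs of a library moves them together. Without the 3 iBAT SVF libraries of day 1, r over the remaining 21 libraries was lower for each of these 7, at 0.81 for HEMGN, 0.78 for CA1, 0.75 for ALAS2, 0.73 for NFE2, 0.69 for EPB42, 0.68 for TRIM58 and 0.595 for KEL. For HBB2, not among the 10, it was 0.81 over the 24 libraries and 0.65 over the 21. The other 7 eicosanoid genes had r between -0.36 and 0.04 with ALOX15 on the same measure.

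**Figure D4:**
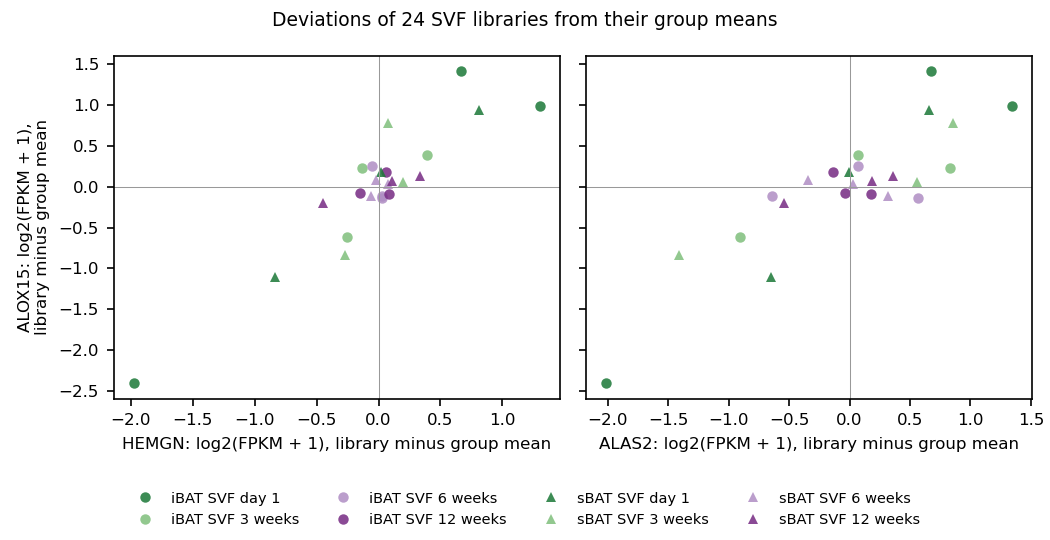
Deviation of ALOX15 from its group mean (vertical axis, log2(FPKM + 1)) against that of HEMGN (left) and ALAS2 (right) in 24 SVF libraries. Circles are iBAT SVF, triangles are sBAT SVF and colour gives the age. The day 1 and 3 week libraries carry most of the spread, with the lowest point being replicate 2 of iBAT SVF at day 1.

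Over all 24 SVF libraries without that subtraction, so that age dominates, the most similar genes were STC1, a secreted glycoprotein hormone (0.88), PPBP, a platelet chemokine (0.86), IGF2BP2, a fetal RNA-binding protein (0.86), LGALS9 (0.85), SLCO2A1, the prostaglandin transporter (0.85), MEIOB (0.85), CRY1 (0.84), ADAMTS20 (0.84), DHH (0.83) and WISP1 (0.83). Across the 12 total iBAT libraries they were ECH1 (0.98), PHKG1 (0.98), CKMT2 (0.98), COX7A1 (0.98), PPP1R1B (0.97), HADHB (0.97), UCP1 (0.97), CA2 (0.97), BCKDHA (0.97) and BHMT2 (0.97). Both lists are descriptions of genes that are high at day 1 and low from 6 weeks on, in libraries that share their age.

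Other cells can make ALOX15, eosinophils and some macrophages among them. The summed FPKM of 5 eosinophil markers was 0 to 0.83 in total iBAT and 0 to 6.07 in the SVF. EPX, the eosinophil peroxidase, was at 0.23 or less in every library. In iBAT SVF the means of PRG2 (1.82 to 0), PRG3 (0.73 to 0) and EPX (0.17 to 0.01) went down from day 1 to 12 weeks. Those of CCR3 (0.16 to 0.38) and IL5RA (0.36 to 0.78) went up. The summed FPKM of 10 macrophage markers in total iBAT was 41.3 to 58.0 at day 1 and 59.8 to 98.1 at 12 weeks. The markers did not all move with the sum. The means of CD163 (8.25 to 4.16), MARCO (0.76 to 0.17) and MRC1 (12.01 to 11.03) went down, as ALOX15 did. Those of C1QC (10.62 to 20.19), CSF1R (4.35 to 13.07), VSIG4 (6.64 to 15.43) and the remaining markers went up. In iBAT SVF the sum was 320 to 389 at day 1 and 117 to 226 at 12 weeks. There the means of CD163 (69.6 to 2.88) and MRC1 (86.4 to 6.31) went down most. Those of VSIG4 (39.7 to 23.3), CSF1R (38.6 to 22.2), C1QC (61.0 to 52.5) and CD68 (27.1 to 22.0) went down less, and that of ADGRE1 (0.23 to 0.59) went up. The part of these cells in the ALOX15 levels was not tested.

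Of the other 7 genes, ALOX5, ALOX5AP and LTA4H form the leukotriene branch. In total iBAT all 3 had higher means at each later age than at day 1, and ALOX5 at 6 and 12 weeks and LTA4H at 3 and 12 weeks passed the test. ALOX5, which makes the leukotriene precursor, read 3.93, 2.27 and 4.31 FPKM at day 1, 12.27, 8.93 and 5.55 at 6 weeks and 4.80, 6.51 and 7.90 at 12 weeks. Every later library of total iBAT lay above every day 1 library. It rose by 1.11 (SE 0.27, adjusted p = 0.00511) at 6 weeks, a call kept in all 15 alternatives tried, and by 0.73 (SE 0.27, adjusted p = 0.0445) at 12 weeks, a call lost after median ratio scaling (0.56, adjusted p = 0.112) and without any 1 of replicates 1 and 2 of day 1 or replicates 2 and 3 of 12 weeks (adjusted p of 0.059 to 0.171). At 3 weeks the difference was 0.70 (adjusted p = 0.0568).

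ALOX5AP, which presents arachidonic acid to ALOX5, read 6.36, 5.94 and 4.48 FPKM in total iBAT at day 1 and 10.23, 17.54 and 10.85 at 3 weeks, with no overlap and an adjusted p of 0.0545. At 6 weeks it read 18.57, 15.09 and 4.18, replicate 3 falling below all day 1 libraries. That library was also the lowest of its age for 6 of the 8 genes, and its summed macrophage markers were 62.3 FPKM against 165 and 210 in the other 2 libraries. The part of macrophage content in these values was not tested. LTA4H, the hydrolase that forms leukotriene B4, moved within a narrow range, from 9.40 to 12.06 at day 1 to 14.63 to 16.33 at 3 weeks and 12.86 to 14.56 at 12 weeks. It rose by 0.51 (SE 0.12, adjusted p = 0.00635) at 3 weeks and by 0.35 (SE 0.12, adjusted p = 0.03) at 12 weeks. After median ratio scaling these were 0.22 (adjusted p = 0.156) and 0.15 (adjusted p = 0.311), not called. The 12 week call was also lost without replicate 2 or 3 of day 1 or replicate 1 or 3 of 12 weeks, at adjusted p of 0.0674 to 0.101.

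In the sBAT SVF all 3 leukotriene genes were called higher at 6 weeks than at day 1. ALOX5 read 24.04, 13.60 and 18.71 FPKM at 6 weeks against 7.33, 7.44 and 11.67 at day 1, higher by 1.01 (SE 0.32, adjusted p = 0.0183), and after median ratio scaling by 0.69 (adjusted p = 0.118). ALOX5AP read 74.85, 59.14 and 64.25 against 30, 33.94 and 24.18, higher by 1.15 (SE 0.31, adjusted p = 0.0065), a call kept in all 16 alternatives. LTA4H read 20.99, 21.08 and 17.39 against 10.23, 15.26 and 9.87, higher by 0.72 (adjusted p = 0.0198), and by 0.41 after median ratio scaling (adjusted p = 0.0616). The ALOX5 call was lost without replicate 1 or 2 of day 1 or replicate 1 of 6 weeks (adjusted p of 0.0615 to 0.097), and that of LTA4H without replicate 1 or 3 of day 1 or replicate 1 or 2 of 6 weeks (adjusted p of 0.0585 to 0.0841). For all 3 genes the 6 week libraries lay above day 1 without overlap, in a comparison in which 27.5% of all genes were called higher. The summed macrophage markers of these libraries stood at 350 to 388 FPKM at day 1, 499 to 744 at 6 weeks and 136 to 384 at 12 weeks. From day 1 to 6 weeks the means of C1QC (78.0 to 183), VSIG4 (44.2 to 108) and CSF1R (36.2 to 96.4) went up, and those of CD14 (37.3 to 23.98), CD163 (51.9 to 45.4) and MARCO (9.02 to 1.68) went down. Their part in the leukotriene genes was not tested. At 12 weeks ALOX5 (8.25, 26.85 and 11.58) and ALOX5AP (25.32, 54.79 and 37.11) overlapped day 1, with replicate 2 the highest for both genes and for the summed macrophage markers.

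In the iBAT SVF only ALOX5AP of this branch was called at 3 or 6 weeks. It rose at 3 weeks by 0.90 (SE 0.31, adjusted p = 0.0462), from 20.91, 18.03 and 16.19 FPKM to 36.99, 38.89 and 29.84, where 18.7% of all genes were called. The call was lost when any 1 of the 6 libraries was left out (adjusted p of 0.0662 to 0.135). The summed macrophage markers were 320 to 389 FPKM at day 1 and 178 to 234 at 3 weeks, with lower means of CD163 (69.6 to 10.7) and MRC1 (86.4 to 27.7) and little change in VSIG4 (39.7 to 40.03) and C1QC (61.0 to 57.5). Their part was not tested. At 6 weeks ALOX5AP read 46.41, 32.83 and 22.70, an adjusted p of 0.0843 as deposited and 0.0155 after median ratio scaling.

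ALOX12, the platelet-type enzyme, was the least abundant of the 8 outside the late ALOX15 groups, with at most 1.39 FPKM in total iBAT, 1.60 in iBAT SVF and 6.13 in sBAT SVF. In total iBAT its libraries read 0.12, 0.19 and 0.07 at day 1 and 1.39, 1.03 and 0.35 at 6 weeks, with a log2 difference of 0.73 (SE 0.24, adjusted p = 0.0223), and at 3 weeks 0.65 (adjusted p = 0.0459). Both calls were lost with 1 library left out: at 6 weeks replicate 1 or 3 of day 1 or replicate 1 or 2 of 6 weeks (adjusted p of 0.0511 to 0.0924), and at 3 weeks any but replicate 3 of 3 weeks (adjusted p of 0.0759 to 0.138). In sBAT SVF it read 1.05, 1.08 and 1.17 at day 1 and 6.13, 4.26 and 1.79 at 6 weeks, higher by 1.17 (SE 0.29, adjusted p = 0.00351), a call kept in all 15 alternatives. The sum of 8 platelet genes in sBAT SVF was 22.7 to 35.9 FPKM at day 1 and 12.8 to 22.9 at 6 weeks. The part of platelets in the ALOX12 level was not tested. In the RefSeq table ALOX12 lies within LOC103351478, a non-coding gene also present in both tables, so fragments may be split between them and the ALOX12 values are uncertain.

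The constitutive cyclooxygenase PTGS1 and the inducible PTGS2 behaved differently from each other. PTGS1 in total iBAT read 3.82, 4.80 and 3.62 FPKM at day 1, 16.61, 29.66 and 12.48 at 3 weeks, 28.86, 22.46 and 5.95 at 6 weeks and 6.21, 3.93 and 15.91 at 12 weeks. It was higher by 1.94 (SE 0.54, adjusted p = 0.0141) at 3 weeks and by 1.75 (SE 0.54, adjusted p = 0.0183) at 6 weeks, without overlap, and overlapped day 1 at 12 weeks (adjusted p = 0.284). Both rises were called after median ratio scaling too. The first was lost without replicate 2 of 3 weeks (adjusted p = 0.0605), and the second without replicate 3 of day 1 (adjusted p = 0.0519), replicate 1 of 6 weeks (adjusted p = 0.0776) or replicate 2 of 6 weeks (adjusted p = 0.0675). Summed markers of stromal progenitors were 384 to 589 FPKM at day 1, 1634 to 2443 at 3 weeks and 1842 to 4203 at 6 weeks. At 12 weeks, when PTGS1 overlapped day 1, these markers had not all come back to day 1. DCN, the most abundant, had a mean of 306 at day 1 and 1624 at 12 weeks. PI16, LUM, CD34 and PDGFRA also had higher means at 12 weeks, and DPP4 a lower one (23.6 to 7.76). The part of these cells in the PTGS1 level was not tested. PTGES, the inducible prostaglandin E synthase, went from 0.40, 0.14 and 0.59 at day 1 to 1.57, 2.53 and 1.91 at 3 weeks, higher by 1.13 (SE 0.37, adjusted p = 0.0291). That call was lost without replicate 1 or 2 of day 1 or replicate 2 or 3 of 3 weeks, at adjusted p of 0.0556 to 0.0923. Its later course differed from that of PTGS1. PTGES overlapped day 1 at 6 weeks (0.42 to 2.85) and lay above it at 12 weeks (0.78 to 3.03), and was called at neither age.

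PTGS2 in total iBAT was low throughout, at 1.96 to 2.81 FPKM at day 1, 2.09 to 2.82 at 3 weeks, 1.59 to 2.01 at 6 weeks and 3.64, 3.78 and 6.01 at 12 weeks. The 12 week libraries lay above all others. The rise against day 1 was 0.66 (SE 0.18, adjusted p = 0.0109), and it was called in all 14 alternatives. Transcripts of 10 immediate early genes such as FOS and EGR1, a list chosen after values had been seen, summed to 35.2 to 58.1 FPKM at day 1 and to 217 to 1152 at 12 weeks in the same tissue. They summed to 116 to 181 at 3 weeks and 169 to 326 at 6 weeks, when PTGS2 had not risen. Their part in the PTGS2 level was not tested.

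In the stroma PTGS2 had the highest mean FPKM of the 8 genes at 3 and 6 weeks in both depots, and it was lower at 12 weeks than at day 1 in both. At 12 weeks in iBAT SVF PTGS1 stood above it, at a mean of 105.5 against 95.3. In sBAT SVF it read 250.97, 225.61 and 135.11 FPKM at day 1, 37.97, 86.33 and 115.12 at 3 weeks, 218.99, 177.97 and 244.75 at 6 weeks and 89.50, 94.32 and 87.91 at 12 weeks. The 12 week libraries were close together and all below day 1. The difference was -1.11 on the log2 scale (SE 0.30, adjusted p = 0.00536), called in all 16 alternatives, and after median ratio scaling -1.60 (adjusted p = 7.44e-05). In iBAT SVF, as a description, the values were 216.97, 234.21 and 187.07 at day 1, 263.38, 211.53 and 187.13 at 6 weeks and 87.68, 89.89 and 108.22 at 12 weeks, again with no overlap between day 1 and 12 weeks. The immediate early genes summed to 1677 to 7126 FPKM over the SVF libraries. At 12 weeks the sum was 3439 to 4038 in iBAT SVF and 3276 to 4695 in sBAT SVF, against 3910 to 4617 and 3073 to 3295 at day 1. Within the sum, NR4A1 (mean 238 to 109) and IER3 (438 to 308) were lower in sBAT SVF at 12 weeks than at day 1, and EGR1 (708 to 1080.3), FOS (523 to 855) and JUN (226 to 557) were higher. Their part in the stromal PTGS2 level was not tested. PTGS1 and PTGES in the stroma were not called at any age in iBAT SVF (3 and 6 weeks) or at 6 and 12 weeks in sBAT SVF. PTGS1 ranged from 58.3 to 130 FPKM over all iBAT SVF libraries and PTGES from 5.2 to 12.3.

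At 12 weeks PTGS1 was higher in the interscapular than in the subscapular stroma. It read 118.41, 100.94 and 97.25 FPKM in iBAT SVF and 40.04, 40.79 and 66.34 in sBAT SVF, all 3 above all 3 and higher by 1.12 (SE 0.33, adjusted p = 0.0218). After median ratio scaling the difference was 1.498 (adjusted p = 0.00492). As deposited it was lost without replicate 1 (adjusted p = 0.0783) or 3 (adjusted p = 0.0629) of iBAT SVF, or replicate 1 (adjusted p = 0.0946) or 2 (adjusted p = 0.0959) of sBAT SVF. At day 1 the libraries also did not overlap (78.28, 112.89 and 58.29 against 53.04, 55.39 and 25.68), with an adjusted p of 0.216. At 6 weeks they overlapped (63.98, 91.95 and 66.99 against 73.82, 34.80 and 44.01, adjusted p = 0.326). ALOX12 was lower in iBAT SVF at 12 weeks at -0.82 (adjusted p = 0.0465). That call was lost after median ratio scaling (adjusted p = 0.24) and without any 1 of the 6 libraries (adjusted p of 0.0567 to 0.208).

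Counted over the set, the shares called in total iBAT were near those of all genes. At 3 weeks 4 of 8 were called, all higher, where 41.7% of all genes were called and 31.8% were higher. At 6 weeks 3 were higher and 1 lower, where 35.1% of all genes were higher and 15.6% lower. At 12 weeks 3 were again higher and 1 lower, beside 31.3% and 15.7%. After median ratio scaling the members called numbered 2, 5 and 2 at the 3 ages, where 37.9%, 49.4% and 46.0% of all genes were called. The median log2 fold change of the 8 was 0.67, 0.79 and 0.64, beside 0.25, 0.24 and 0.19 for all genes tested.

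Leaving ALOX15 aside in the stroma, 1 of 7 was called in iBAT SVF at 3 weeks, ALOX5AP (4.86% of all genes called higher; 20.3% called in either direction after median ratio scaling). At 6 weeks limma called 0 of 7, where 15.4% of all genes were called. There 1 of the 7, ALOX5AP, had an unadjusted p under 0.05, and it was the 1 called after median ratio scaling (16.3% of all genes). The share of all genes with such an unadjusted p was not counted. In sBAT SVF 4 of 7 were called at 6 weeks, all higher, where 35.8% of all genes were called and 27.5% were higher. After median ratio scaling 2 were called, where 31.3% of all genes were. At 12 weeks 1 of 7, PTGS2, was called lower, where 44.1% of all genes were called and 5.86% were lower. It was also the 1 called after that scaling, where 29.8% of all genes were called and 15.0% were lower. The median of the 7 in sBAT SVF was 0.72 at 6 weeks and 0.35 at 12 weeks, beside 0.26 and 0.41 for all genes.

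The 3 week sBAT SVF libraries gave other calls under another scaling. As deposited, 4 of 7 members (ALOX5, LTA4H, PTGS2 and PTGES) were called lower than at day 1, in a comparison in which 71.2% of all genes were called and 69.8% were lower. With median ratio scaling none was lower and 3 were called higher (32.3% of all genes called, 14.5% higher), ALOX5AP (1.14, adjusted p = 0.0027), PTGS1 (0.85, adjusted p = 0.0378) and LTA4H (0.50, adjusted p = 0.0248). The depot comparison at 3 weeks uses the same libraries. It called 5 of 8 members higher in iBAT SVF, ALOX15 (a description) among them, where 76.3% of all genes were called and 76.0% higher. With median ratio scaling it called 1 of 8, ALOX5AP, at -0.95 (adjusted p = 0.0315), where 7.87% of all genes were called and 3.91% lower.

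Between depots at the other ages, limma called 0 of 8 at day 1, where 0.414% of all genes were called, and 1 member had an unadjusted p under 0.05. It called 0 of 8 at 6 weeks, where 2.47% of all genes were called, and 4 members had an unadjusted p under 0.05. These 4 were ALOX5, ALOX5AP, ALOX12 and LTA4H, all lower in iBAT SVF without overlap. The median gene tested stood at -0.22 in this comparison. The shares of all genes with such a p or without overlap were not counted, so the 4 are not a result about the set. At 12 weeks 2 of 8 were called, 1 higher and 1 lower, where 22.2% of all genes were called, 1.85% higher and 20.4% lower. After median ratio scaling the counts were 0, 0 and 1, beside 0.158%, 1.05% and 9.78% of all genes. At 12 weeks the same-numbered libraries of the 2 depots deviated together from their group means (r of 0.252, 0.508 and 0.334), and with replicate number as a block 3 members were called, 1 higher and 2 lower. The interaction of depot and age called 0 of the 7 members other than ALOX15 by limma, 0 with an unadjusted p under 0.05 and 0 after median ratio scaling, where 18.4% of all genes were called as deposited and 1.26% after it.

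**Figure D5:**
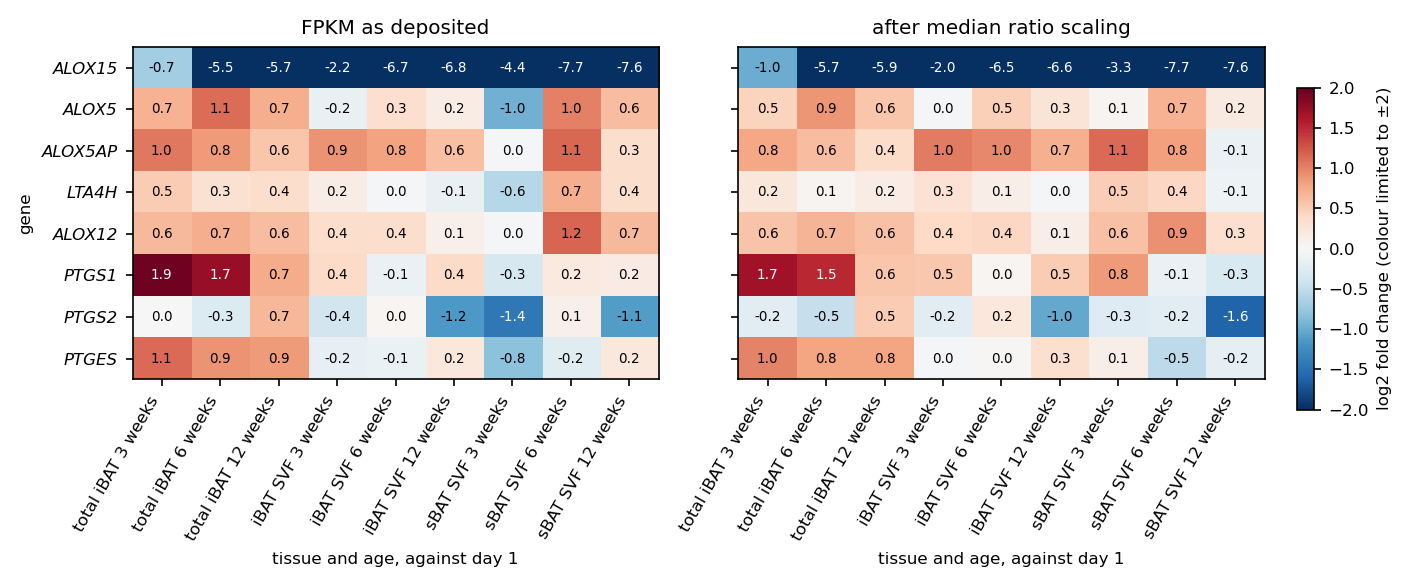
Log2 fold change of each gene (rows) at 3, 6 and 12 weeks against day 1 in total iBAT, iBAT SVF and sBAT SVF (columns), on FPKM as deposited (left) and after median ratio scaling (right). The number in a cell is the log2 fold change and the colour scale ends at 2 in either direction. ALOX15 is lower in all 9 comparisons in both panels, and in the sBAT SVF 3 week column 6 of the other 7 genes stand above 0 after scaling, PTGS2 being the exception.

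Around these enzymes, a list of 59 further eicosanoid genes (phospholipases, other synthases, catabolism and transport, receptors and inhibitors) was examined, of which 49 were in each table. In total iBAT 16 of 33 tested were called at 12 weeks, 12 higher and 4 lower, where 47.0% of all genes were called, 31.3% higher and 15.7% lower. EPHX1, an epoxide hydrolase, rose by 2.01 (adjusted p = 4.63e-07), from a mean of 64.6 FPKM to 264, and CYP4F22, a fatty acid omega-hydroxylase, by 3.23 (adjusted p = 1.62e-05), from 0.277 to 10.8. PTGES2, a membrane-associated prostaglandin E synthase, fell by 1.58 (adjusted p = 1.03e-06), from 92.1 to 30.03, and EPHX2, the soluble epoxide hydrolase, by 1.57 (adjusted p = 0.000201), from 517 to 175.

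In sBAT SVF 18 of 37 were called at 12 weeks, 12 higher and 6 lower. The shares of all genes were 44.1% called, 38.3% higher and 5.86% lower. With median ratio scaling 13 were called, 6 of them higher and 7 lower, where 29.8% of all genes were called. The genes of prostaglandin clearance went in different directions. HPGD, which inactivates prostaglandins, rose by 1.78 (adjusted p = 0.00132), from a mean of 3.27 FPKM to 14.4, while SLCO2A1, which carries prostaglandins into cells, fell by 2.36 (adjusted p = 1.04e-06), from 12.5 to 1.62. PLA2G4A, the cytosolic phospholipase that releases arachidonic acid, fell by 1.06 (adjusted p = 0.00368), from 29.3 to 13.6. DPEP1, a dipeptidase that converts leukotriene D4, fell by 2.52 (adjusted p = 2.11e-05). In iBAT SVF, as a description, the means went from 7.06 to 26.0 for HPGD, from 11.9 to 1.03 for SLCO2A1 and from 24.1 to 11.9 for PLA2G4A. The other lipoxygenases on the list, ALOX15B, ALOX12B and ALOXE3, did not pass the filter in either table.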

How the data were processed

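FPKM per gene was read from the tables deposited by the authors, one with 12 total iBAT libraries and one with 24 SVF libraries. All 36 value columns were mapped to samples by their names, and the 3 single-cell samples were not analysed here. Per the submitters' processing notes, the genome build was OryCun2.0 and the tools named were HISAT2 2.0.4, Bowtie2 2.2.5 and DESeq2, with no role given. No counts were used, and absolute depth is unknown. In total iBAT, relative depth estimated from the steps of low FPKM was 0.555 to 0.624 at day 1 and 1.357 to 1.394 at 12 weeks, so depth and age cannot be told apart there. Replicates of a group held equal values for at most 0.497% of genes expressed in either library, so none was a copy.

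Genes with at least 1 FPKM in 3 libraries of a table were kept. log2(FPKM + 1) of the deposited values was fitted with limma 3.58.1 in R 4.3.3, 1 mean per group, all libraries of a table in one fit, two-sided, with Benjamini-Hochberg adjustment over all genes. On simulated data for 12 weeks against day 1, 80% (total iBAT, 12853 genes) and 62% (sBAT SVF, 13274 genes) of genes changed by 1 on the log2 scale were recovered. The changed genes were drawn from those with a mean log2(FPKM + 1) over 1 and no large spread. Recovery of lower or more variable genes is therefore not known. Alternatives were a pseudocount of 0.1, other filters (none, or 5 FPKM), 3 other scalings, moderation with no trend, only the compared groups, a replicate block, and each library left out.

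The labels name no shared animal, so the depot calls come from the fit without pairing, with a replicate block as an alternative. Between depots, every same-numbered pair had an r over 0.1 at 12 weeks alone (0.252, 0.508 and 0.334, the other 6 pairs -0.291 to -0.05). At day 1 the same-numbered pairs gave 0.058, 0.59 and 0.33. These r come from the same expression values and do not show that the numbers are animals.

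Symbols came from the SVF table and from a RefSeq gene table of assembly mOryCun1.1, used for names alone, which matched 17693 of 20589 SVF identifiers. The 8 members and the gene lists were chosen with earlier results of these data known. The text names the members, up to 4 called rises and falls per list and tissue at 12 weeks with a group mean of at least 5 FPKM, and the 10 genes most like ALOX15 on 3 measures. Other genes named for their values were chosen after those were seen.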

Additional observations from a re-analysis of the deposited data

Results flagged for a closer look

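PTGS2 moved in opposite directions in whole tissue and in stroma between day 1 and 12 weeks. All 3 libraries of 12 weeks lay above day 1 in total iBAT (0.66 on the log2 scale) and below day 1 in iBAT SVF (-1.15) and sBAT SVF (-1.11). The fold change in total iBAT exceeded that in iBAT SVF by 1.81 and that in sBAT SVF by 1.78. The tables were normalized separately and the difference between tissues was not tested. The directions were the same after median ratio scaling, at 0.50, -1.03 and -1.60.

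At 3 weeks against day 1, ALOX5 lay above day 1 in every total iBAT library and below it in every sBAT SVF library, a difference in log2 fold change of 1.66, and PTGES did the same with a difference of 1.94. Neither difference was tested. After median ratio scaling the sBAT SVF fold changes were 0.06 for ALOX5 and 0.13 for PTGES, so the opposite directions were no longer there.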

How the results depend on the processing

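Absolute depth is unknown, so no counting error could be given, and values near 0 FPKM cannot be told from a few fragments. With 3 libraries a group, 1 library decides many calls. Relative depth and age ran together in total iBAT. Fold changes called as deposited, those of ALOX15 by age and those of the members in iBAT SVF at 12 weeks were recomputed under each alternative, so calls gained by other fold changes are not counted here. Of these values, 523 kept their direction and call or moved less than the spread, 108 lost the call, 1 gained it (ALOX15 in total iBAT at 3 weeks, without day 1 replicate 2), 10 moved and 16 changed sign. In total iBAT, ALOX15 stayed lower and called under every alternative tried at 6 weeks (-7.56 to -5.12) and 12 weeks (-8.17 to -5.30). ALOX15 in the SVF, with no test, was lower under all alternatives. The cause of the changes listed next was not tested.

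Counts of members called moved as follows. In total iBAT the 4 called at 3 weeks became 2 with no filter, a filter at 5 FPKM, median ratio or upper quartile scaling, and the 4 called at 12 weeks became 2 with median ratio or upper quartile scaling or with the dominant genes left out. In iBAT SVF 1 became 0 at 3 weeks with a pseudocount of 0.1 or no filter, and 0 became 1 at 6 weeks with any of the 3 scalings or without the sBAT SVF 3 weeks libraries. In sBAT SVF 4 became 2 at 3 weeks with only the groups compared, 4 became 2 at 6 weeks with any of the 3 scalings, and 1 became 2 at 12 weeks with only the groups compared and 3 without the 3 weeks libraries. Between depots, 0 became 1 at day 1 with the dominant genes left out. At 3 weeks 5 became 1 with median ratio or upper quartile scaling and 2 with the dominant genes left out. At 6 weeks 0 became 3 with the dominant genes left out or without the sBAT SVF 3 weeks libraries. At 12 weeks 2 became 1 with a pseudocount of 0.1, no filter, a filter at 5 FPKM or any of the 3 scalings.

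With each library left out in turn, the counts ranged from 1 to 3, 2 to 6 and 2 to 4 in total iBAT at 3, 6 and 12 weeks. In iBAT SVF they were 0 throughout at 3 weeks and 0 to 1 at 6 weeks. In sBAT SVF they were 2 to 3, 2 to 4 and 1 to 3. Between depots they were 0 at day 1, 3 to 5 at 3 weeks, 0 to 1 at 6 weeks and 0 to 2 at 12 weeks, and 0 for the interaction.

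Signs changed in the 3 week comparisons with sBAT SVF, under median ratio scaling, upper quartile scaling and with the dominant genes left out, in that order. Against day 1, ALOX5 went to 0.061, 0.069 and 0.111, LTA4H to 0.499, 0.506 and 0.561, and PTGES to 0.134, 0.14 and 0.189. Between depots, LTA4H went to -0.319, -0.286 and -0.648 and PTGS2 to -0.079, -0.043 and -0.42. PTGES went to -0.235 with the dominant genes left out.

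Same-numbered libraries had an r over 0.1 in every pair only between depots at 12 weeks (0.252 to 0.508). At the other ages the depots gave -0.294 to 0.59, and the ages of total iBAT gave -0.342 to 0.161 (2 of 18 over 0.1), so the numbers were not shown to pair those libraries. With a replicate block the counts were 3, 4 and 3 in total iBAT, 1 and 0 in iBAT SVF, 3, 4 and 1 in sBAT SVF, 0, 6, 1 and 3 between depots (day 1 to 12 weeks), and 0 for the interaction.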
